A study of Neurospora crassa OR74A with 3 samples.

Results

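In mycelia of the filamentous fungus Neurospora crassa, 95 genes had a transcript level that stood apart from the parent strain in a strain lacking clp1. In a strain lacking both clp1 and cdt-2, these genes lay near the parent on either side, or further away on the other side. They were chosen from the measured values themselves. Reads per gene were scaled by median-of-ratios size factors, the usual correction for sequencing depth and composition. A member had at least 100 reads in the parent Δ3βG and a scaled level in Δ3βGΔncu05853 at least 1.4-fold above or below it. In Δ3βGΔcdt2Δncu05853 its level was near the parent's, the lower of both being at least 80% of the higher, or lay on the other side of it. The files hold 9730 genes, of which 6229 had at least 100 reads in Δ3βG once NCU05853 was left out. The 95 members comprise 32 genes that were higher and 63 that were lower in Δ3βGΔncu05853.

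All 3 strains lack the same 3 β-glucosidase genes, which is what the name Δ3βG stands for. In Δ3βGΔncu05853 the gene clp1 (NCU05853) is deleted as well, whose product is similar to cellodextrin transporters. Δ3βGΔcdt2Δncu05853 carries that deletion and one of cdt-2 (NCU08114), a transporter gene for cellodextrins. Mycelia spent 16 h in sucrose medium and 4 h on 2% cellobiose, and each strain gave 1 RNA sequencing library. No label tells of replicate cultures or of how many isolates stood behind a strain, and no strain lacking cdt-2 with clp1 intact was measured.

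As background, cellobiose is the disaccharide released from cellulose. N. crassa takes it up through cellodextrin transporters and cleaves it to glucose with β-glucosidases. Strains without the main β-glucosidases keep cellobiose intact for longer, and cellobiose then acts as a signal for cellulase genes. Whether the members share a pathway was not tested, and only 12 of the 95 have a gene symbol. Those with a gene symbol include genes of protein folding, carotenoid synthesis, conidiation, DNA repair and glutamine synthesis.

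The libraries held 8586155 gene reads in Δ3βG, 9465639 in Δ3βGΔncu05853 and 9808610 in Δ3βGΔcdt2Δncu05853. clp1 had 4190, 2 and 0 reads in that order, and cdt-2 had 1907, 2842 and 9. The β-glucosidase genes deleted in all 3 strains had few reads, though not none. In the same order, gh1-1 (NCU00130) had 18, 47 and 0, and gh3-4 (NCU04952) had 5, 14 and 13. For gh3-3 (NCU08755) the reads were 15, 14 and 21. The source of these reads was not tested. The double deletion library stood apart from the other two: relative to Δ3βG, 27.9% of the 6229 genes stood 1.4-fold or more above and 34.0% 1.4-fold or more below. The transcript of eas, the gene of the hydrophobin that coats conidia, took 18.7% of gene reads in Δ3βG, 20.0% in Δ3βGΔncu05853 and 0.305% in Δ3βGΔcdt2Δncu05853. Reads outside genes made up 9.64%, 8.41% and 5.16% of all reads. The part of these differences in the members' values was not tested. With 1 library per strain there is no replicate check and no p-value, and the 95% intervals below (exact, conditional on the sum of both counts) cover counting error only. A difference of the Δ3βGΔncu05853 strain and a difference of that 1 library or culture cannot be told apart. Both deletion strains are set against the same Δ3βG library. In bulk RNA, fewer cells of a type and less RNA per cell cannot be told apart either.

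Most genes that stood apart in Δ3βGΔncu05853 were not members. In Δ3βGΔncu05853, 273 of the 6229 genes (4.38%) stood 1.4-fold or more above Δ3βG and 346 (5.55%) as far below, which is 9.94% together. The members were 32 of the former (11.7%) and 63 of the latter (18.2%). The remaining 241 and 283 stood beyond the 80% bound the same way in the double deletion strain. Since these counts come from the rule, nothing is read from them.

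The members fell into 4 groups by their direction in Δ3βGΔncu05853 and their level in the double deletion strain. The higher members divided into 16 whose level in Δ3βGΔcdt2Δncu05853 was near the parent (within the 80% bound) and 16 that lay beyond the bound below it, where 40.9% of all 6229 genes lay. Of the lower members, 32 were near the parent and 31 beyond the bound above it, against 33.2% of all genes. For 47 of the 95, therefore, a phrase such as "changed in the clp1 deletion only" describes a direction, and not a level equal to the parent's in the double deletion strain. The shares of all genes are not a like base for these groups, because the rule kept higher members from lying beyond the bound above the parent. It likewise kept lower members from lying beyond the bound below the parent. The median ratio of Δ3βGΔncu05853 to Δ3βG was 1.56 for the higher members and 0.655 for the lower ones, against 0.986 over all 6229 genes. At least 2-fold apart were 9 members, where 0.931% of all genes were. These were 3 higher members, against 0.241% of all genes, and 6 lower ones, against 0.690%. Members were chosen as at least 1.4-fold apart, so larger shares than over all genes follow from the rule. Of the 619 genes at least 1.4-fold apart either way, 58 were at least 2-fold apart. In Δ3βGΔcdt2Δncu05853, 10 of the higher members were at least 2-fold lower than the parent, against 17.0% of all genes, and 14 of the lower members were at least 2-fold higher, against 15.6%. Here too the rule barred members from the other side, so these shares of all genes are not a like base.

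**Figure D1:**
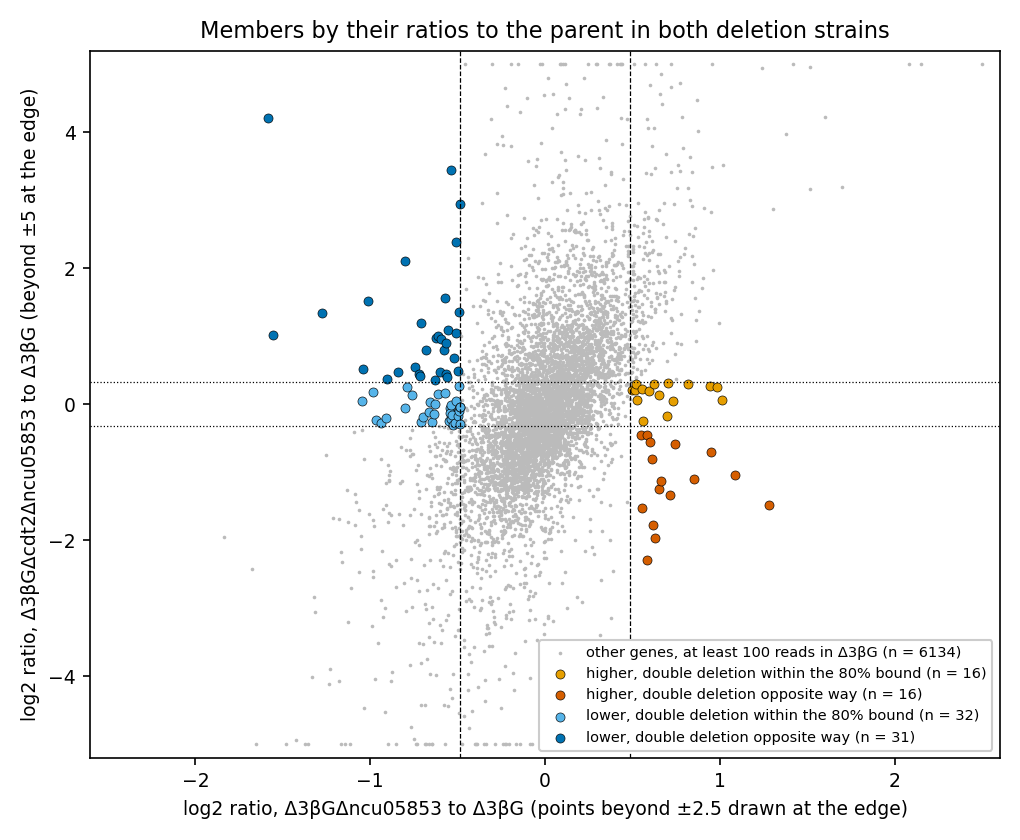
Log2 ratio of scaled reads of each gene in Δ3βGΔncu05853 to Δ3βG (horizontal axis) and in Δ3βGΔcdt2Δncu05853 to Δ3βG (vertical axis), 1 library per strain, with members coloured by direction and group. Dashed lines mark 1.4-fold and dotted lines the 80% bound, and genes beyond the axes are drawn at the edge; by the rule, members lie outside the dashed lines and either between the dotted lines or on the other side of 0 on the vertical axis, and both axes share the Δ3βG library.

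The order of the 3 levels follows only in part from these groups, because members near the parent may lie on either side of it. Among the 32 higher members, Δ3βGΔcdt2Δncu05853 was the lowest library for 18 and lay between the other two for 14. Among the 63 lower members, Δ3βGΔcdt2Δncu05853 was the highest library for 41 and lay between for 22. As shares of gene reads, the higher members together took 0.223% in Δ3βG, 0.367% in Δ3βGΔncu05853 and 0.131% in Δ3βGΔcdt2Δncu05853. The lower members took 0.987%, 0.641% and 1.13%.

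Of the 95 members, 12 have a gene symbol, of which 11 were lower in Δ3βGΔncu05853. The most abundant was grp78 (NCU03982), the Hsp70 chaperone of the endoplasmic reticulum that binds unfolded secretory proteins. It had 31521 reads in Δ3βG, 22360 in Δ3βGΔncu05853 and 34898 in Δ3βGΔcdt2Δncu05853. Its scaled level was 1.55-fold lower in Δ3βGΔncu05853 (95% counting interval 1.52 to 1.57) and 1.28-fold higher in Δ3βGΔcdt2Δncu05853 (1.26 to 1.30) than in the parent. The direction in the double deletion strain depended on scaling, with a ratio of 0.969 on totals of gene reads. Its level per length was 1202, 798 and 1281 RPKM (reads per kilobase of exon, scaled to library depth) in the 3 libraries, the highest of any member in each. Among 12 genes of the list of heat shock proteins and grp78 with at least 100 reads in Δ3βG, grp78 was the 1 gene at least 1.4-fold lower in Δ3βGΔncu05853, and 0 were higher. Over all 6229 genes, 5.55% were that far lower in Δ3βGΔncu05853 and 4.38% higher. The list's median log2 ratio there was -0.10, against -0.02 over all genes, and 0.54 in Δ3βGΔcdt2Δncu05853, against -0.11. This list and those below were drawn for functions that a member has, so each holds at least 1 member by choice.

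Light-induced genes and a gene of conidia were among the lower members. al-1 (NCU00552) encodes phytoene desaturase of carotenoid synthesis. It had 5493 reads in Δ3βG, 3597 in Δ3βGΔncu05853 and 6980 in Δ3βGΔcdt2Δncu05853, which is 1.67-fold lower (1.61 to 1.75) and 1.47-fold higher (1.42 to 1.52) than the parent. bli-4 (NCU08699), named for its induction by blue light, had 445, 247 and 437 reads. Its level was 1.98-fold lower in Δ3βGΔncu05853 (1.69 to 2.32), while its ratio of 1.13 in Δ3βGΔcdt2Δncu05853 had an interval that included 1 (0.992 to 1.30). The clp1 deletion library was thus the low one for both genes, and for bli-4 counting did not separate the other two libraries. Of 13 genes of light response, photoreceptors and carotenoid synthesis with at least 100 reads, these 2 were at least 1.4-fold lower in Δ3βGΔncu05853 and 0 were higher. Over all genes, 5.55% were that far lower there and 4.38% higher. The list's median log2 ratio was -0.10. The other carotenoid genes went separate ways: al-2 (NCU00585) had ratios of 0.993 in Δ3βGΔncu05853 and 2.07 in Δ3βGΔcdt2Δncu05853, and al-3 (NCU01427) 0.748 and 0.155. The photoreceptor gene vvd (NCU03967) had 1.11 and 2.09, and the clock gene frq (NCU02265) 1.02 and 1.34.

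con-10 (NCU07325), a gene first known from its expression in conidia, had 692, 460 and 818 reads. It was 1.65-fold lower in Δ3βGΔncu05853 (1.46 to 1.86) and 1.37-fold higher in Δ3βGΔcdt2Δncu05853 (1.23 to 1.51). Of 20 conidiation and clock-controlled genes with at least 100 reads, 8 were at least 1.4-fold lower in Δ3βGΔncu05853 and 1, ccg-16, was higher, where 5.55% and 4.38% of all genes were. The list's median log2 ratio was -0.32, against -0.02 over all genes. In Δ3βGΔcdt2Δncu05853, 10 of the 20 were at least 1.4-fold lower and 6 higher, with a median of -0.91 on the log2 scale, against -0.11. The 7 lower genes other than con-10 are not members, because they were lower in Δ3βGΔcdt2Δncu05853 too. Among these, the regulator gene fl (NCU08726) was 1.64-fold lower in Δ3βGΔncu05853 and 21.5-fold lower in Δ3βGΔcdt2Δncu05853. con-13 (NCU07324), the neighbour of con-10 in the RefSeq gene order, had 1563, 1084 and 22 reads. The pair had similar ratios in Δ3βGΔncu05853, at 0.606 and 0.632, and in Δ3βGΔcdt2Δncu05853 ratios of 1.37 and 0.0163.

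Genes of nitrogen and sulphur amino acids differed in how far the double deletion strain stood from the parent. gln-1 (NCU06724), which encodes glutamine synthetase, had 3774, 2941 and 3039 reads. It was 1.41-fold lower in Δ3βGΔncu05853 (1.34 to 1.48) and 1.07-fold lower in Δ3βGΔcdt2Δncu05853 (1.02 to 1.13). cys-2 (NCU04077), named for mutants that need cysteine, had 183, 143 and 1223 reads. Its level, 1.4-fold lower in Δ3βGΔncu05853, lay at the limit of the rule with a wide interval (1.12 to 1.76), whereas in Δ3βGΔcdt2Δncu05853 it was 7.72-fold higher (6.60 to 9.07). Of 60 amino acid biosynthesis genes with at least 100 reads, 4 were higher and 5 lower by 1.4-fold in Δ3βGΔncu05853, where 4.38% and 5.55% of all genes were. The list's median log2 ratio was 0.03. Besides gln-1 and cys-2 none of these 9 was a member.

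The members mus-18, set-2 and mip-1 act on DNA or chromatin by their symbols, and the rule placed them near the parent in the double deletion strain. mus-18 (NCU08850), which encodes an endonuclease that nicks DNA damaged by ultraviolet light, had 872, 500 and 625 reads and was 1.91-fold lower in Δ3βGΔncu05853 (1.71 to 2.14) and 1.21-fold lower in Δ3βGΔcdt2Δncu05853 (1.09 to 1.34). Of 33 DNA repair genes with at least 100 reads it was the 1 gene at least 1.4-fold lower in Δ3βGΔncu05853, and 0 were higher. Over all genes, 5.55% were that far lower there and 4.38% higher. That list's median log2 ratio was -0.10 in Δ3βGΔncu05853 and -0.67 in Δ3βGΔcdt2Δncu05853. set-2 (NCU00269), a histone H3 lysine methyltransferase gene, had 288, 195 and 219 reads and was 1.62-fold lower (1.35 to 1.95) in Δ3βGΔncu05853. In the double deletion strain its ratio of 0.879 had an interval of 0.734 to 1.05. Of 25 genes of histone and DNA modification set-2 was the 1 gene at least 1.4-fold lower in Δ3βGΔncu05853 and 0 were higher, against the same 5.55% and 4.38% of all genes. The list's median log2 ratio there was 0.02. mip-1 (NCU00276), which shares its name with the mitochondrial DNA polymerase gene of Saccharomyces cerevisiae, had 216, 126 and 162 reads and was 1.88-fold lower (1.5 to 2.36) in Δ3βGΔncu05853, with a ratio of 0.866 (0.702 to 1.07) in the double deletion strain. For set-2 and mip-1 the parent and the double deletion strain could not be told apart at this depth and scaling.

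The remaining genes with symbols act in ion transport, the cell wall and protein degradation. cax (NCU07075), a calcium/proton exchanger gene, had 474, 324 and 710 reads, 1.60-fold lower (1.39 to 1.85) and then 1.73-fold higher (1.54 to 1.95) than the parent. It was the 1 of 6 calcium transport genes at least 1.4-fold apart in Δ3βGΔncu05853, where the 6 ratios ran from 0.623 to 0.991 with a median log2 ratio of -0.18. Over all genes, 9.94% were that far apart either way. ncw-3 (NCU07817), a non-anchored cell wall protein gene, had 514, 395 and 366 reads and was 1.43-fold lower in Δ3βGΔncu05853 and 1.22-fold lower in the double deletion strain. Of 24 genes of cell wall proteins and synthases with at least 100 reads, 7 were at least 1.4-fold lower and 1 higher in Δ3βGΔncu05853, where 5.55% and 4.38% of all genes were. The list's median log2 ratio was -0.13 there, against -0.02 over all genes, and -0.81 in Δ3βGΔcdt2Δncu05853, against -0.11. The 6 lower genes other than ncw-3 lay beyond the 80% bound below the parent in the double deletion strain too. The transferase family gene gel-5 (NCU06850) was nearest to the rule among them, 2.06-fold lower in Δ3βGΔncu05853 and 1.30-fold lower in Δ3βGΔcdt2Δncu05853. pcb-3 (NCU03304), a gene of the proteasome core by its symbol series, was the 1 higher member with a symbol, with 677, 1064 and 721 reads and ratios of 1.43 (1.30 to 1.58) and 1.23 (1.11 to 1.37). Of 30 genes listed under the proteasome by symbol, it was the 1 gene at least 1.4-fold higher in Δ3βGΔncu05853 and 1 was lower. Over all genes, 4.38% were that far higher and 5.55% lower. The list's median log2 ratio was 0.10. The lower gene, rpn-4 (NCU01640), was 1.53-fold lower in Δ3βGΔncu05853 and 2.36-fold lower in Δ3βGΔcdt2Δncu05853. rpn-4 is listed by its symbol alone, and whether it encodes a proteasome subunit was not checked.

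**Figure D2:**
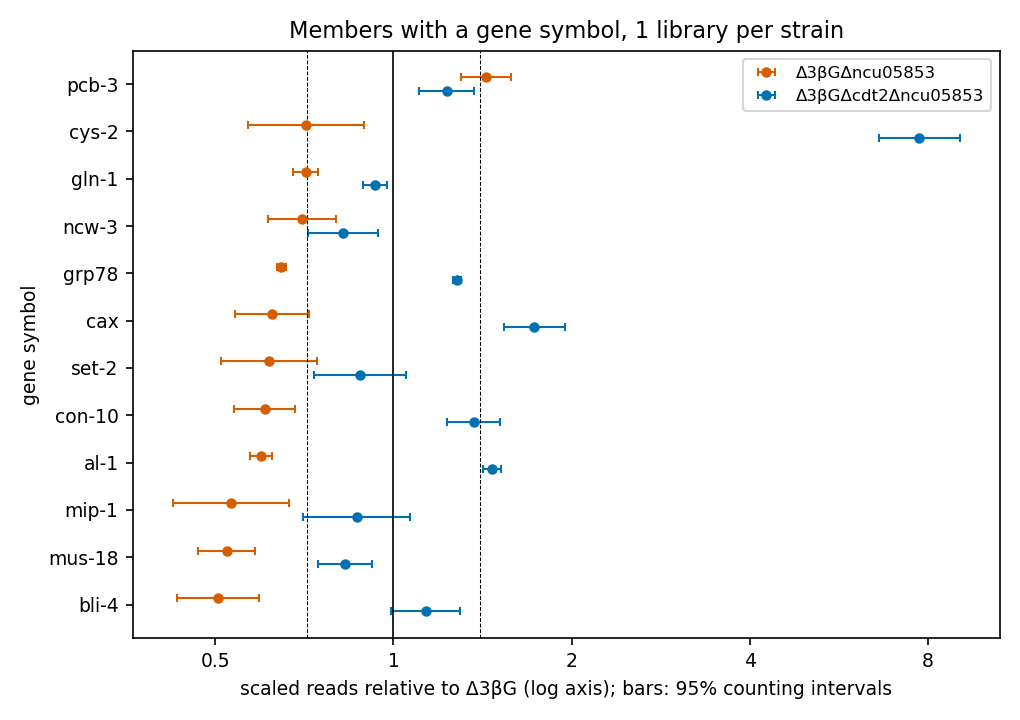
Scaled reads relative to Δ3βG (log axis) for the 12 members with a gene symbol, with 95% counting intervals, in Δ3βGΔncu05853 (orange) and Δ3βGΔcdt2Δncu05853 (blue). Dashed lines mark 1.4-fold; pcb-3 alone lies above 1 in Δ3βGΔncu05853, and cys-2 reaches 7.72 in Δ3βGΔcdt2Δncu05853.

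The other 83 members carry no symbol in the RefSeq table and are given by locus number. The highest ratio in Δ3βGΔncu05853 was that of NCU09738, which had 1386 reads in Δ3βG, 3694 in Δ3βGΔncu05853 and 429 in Δ3βGΔcdt2Δncu05853. It was 2.43-fold higher (2.28 to 2.59) and then 2.80-fold lower (2.51 to 3.12) than the parent. NCU07309 had 461, 1075 and 195 reads, 2.13-fold higher (1.90 to 2.38) and 2.05-fold lower (1.73 to 2.43). In both genes the clp1 deletion library was the high one and the double deletion library the low one. NCU06625 (332, 657 and 134 reads) and NCU08469 (418, 751 and 143 reads) had the same order, at 1.80-fold and 1.64-fold higher and then 2.14-fold and 2.53-fold lower. NCU02560 followed with 242, 445 and 140 reads, 1.68-fold higher and 1.5-fold lower.

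Other higher members were near the parent in the double deletion strain. NCU02777 had 852, 1797 and 888 reads and was 1.92-fold higher in Δ3βGΔncu05853 (1.77 to 2.09), with a ratio of 1.20 (1.09 to 1.32) in Δ3βGΔcdt2Δncu05853. NCU03752 had 202, 368 and 180 reads, with ratios of 1.66 (1.4 to 1.98) and 1.03 (0.837 to 1.26). NCU06750 had 162, 313 and 173 reads, with 1.76 (1.45 to 2.14) and 1.23 (0.990 to 1.54). For NCU03752 and NCU06750 the parent and the double deletion strain were not distinguishable by counting. NCU09693 (937, 1674 and 1011 reads) was 1.63-fold higher and just inside the bound in the double deletion strain. NCU07123, the most abundant of this group by reads, had 2090, 3278 and 2099 reads and ratios of 1.43 and 1.16.

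Neighbouring genes made up 4 of the higher members. NCU09968 had 493, 1069 and 511 reads and its neighbour NCU09969 had 115, 254 and 104. Their ratios in Δ3βGΔncu05853 were 1.98 (1.78 to 2.20) and 2.01 (1.61 to 2.53), and in Δ3βGΔcdt2Δncu05853 1.20 (1.06 to 1.36) and 1.04 (0.794 to 1.37). The genes on either side of this pair were lower in Δ3βGΔncu05853, with ratios of 0.707 for stk-49 (NCU07062) and 0.473 for NCU07061. NCU02890 had 589, 1248 and 313 reads, and its neighbour NCU16477 had 719, 1249 and 285. This pair had ratios of 1.93 (1.75 to 2.13) and 1.58 (1.44 to 1.74), and 0.614 (0.534 to 0.705) and 0.458 (0.398 to 0.526) in the double deletion strain. Reads with several alignments are not in the counts, nor are reads assigned to more than 1 gene. The latter made up 0.844%, 0.897% and 0.895% of all reads in Δ3βG, Δ3βGΔncu05853 and Δ3βGΔcdt2Δncu05853. The use of strand is not given, so reads of 1 gene that fell on its neighbour alone cannot be told apart here.

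Over all members, 38 neighbours of higher members had at least 100 reads, and 4 of them were at least 1.4-fold higher themselves, which are the 2 pairs counted from both sides (10.5%, against 4.38% of all genes). As many, 4 of the 38, were at least 1.4-fold lower, against 5.55% of all genes. Of 82 such neighbours of lower members, 5 were at least 1.4-fold lower (6.10%, against 5.55%), among them con-13 and rpn-4. None was a member, while 3 of the 82 were at least 1.4-fold higher, against 4.38%. The 82 include NCU10537 once for NCU04994 and once for NCU04996. With a ratio of 0.729 it was not among the 5. NCU00322 was 1.74-fold lower in Δ3βGΔncu05853 (173, 109 and 648 reads), while its neighbour NCU00321 (290, 477 and 4585 reads) had a ratio of 1.5 there. In Δ3βGΔcdt2Δncu05853 these neighbours had ratios of 4.33 and 18.3.

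At the low end stood NCU05751, with 123 reads in Δ3βG, 45 in Δ3βGΔncu05853 and 1963 in Δ3βGΔcdt2Δncu05853. It was 3.0-fold lower (2.11 to 4.32) in the clp1 deletion strain and 18.4-fold higher (15.4 to 22.3) in the double deletion strain, the widest span of any member. NCU01861 had 150, 56 and 264 reads, 2.94-fold lower (2.15 to 4.07) and 2.03-fold higher (1.66 to 2.5). NCU05069, on more reads (822, 373 and 1807), was 2.42-fold lower (2.14 to 2.74) and 2.54-fold higher (2.34 to 2.76). In these 3 genes the clp1 deletion library was the lowest and the double deletion library the highest. NCU06710 differed from them in the double deletion strain. It had 762, 404 and 684 reads, 2.07-fold lower in Δ3βGΔncu05853 (1.83 to 2.34) with a ratio of 1.04 (0.934 to 1.15) in Δ3βGΔcdt2Δncu05853. NCU05782 (130, 73 and 96 reads) was also near the parent there, at 0.853 (0.648 to 1.12), after 1.95-fold lower in the clp1 deletion strain.

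NCU09176 (158, 86 and 393 reads) was 2.02-fold lower and then 2.87-fold higher, and NCU06847 (124, 66 and 154 reads) 2.06-fold lower and then 1.43-fold higher. NCU01064 (622, 365 and 700 reads) and NCU09041 (496, 304 and 598 reads) were 1.87-fold and 1.79-fold lower and then 1.30-fold and 1.39-fold higher. On totals of gene reads NCU01064 had a ratio of 0.985 in the double deletion strain, below the parent.

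Of the 8 members furthest on the other side in the double deletion strain, 6 were between 1.4-fold and 1.55-fold apart in the clp1 deletion strain, and NCU05751 and NCU00322 were further apart. NCU04996 had 167, 126 and 1578 reads, 1.45-fold lower (1.15 to 1.85) and then 10.9-fold higher (9.30 to 12.9). NCU06123 had 774, 596 and 3489 reads, 1.42-fold lower (1.28 to 1.59) and then 5.21-fold higher (4.82 to 5.64). The reverse order was seen in NCU05767, with 141, 232 and 25 reads, 1.5-fold higher (1.21 to 1.86) and then 4.88-fold lower (3.17 to 7.80). NCU17055 (867, 1471 and 192 reads) was 1.55-fold higher and 3.91-fold lower, and NCU09032 (509, 857 and 129 reads) 1.54-fold higher and 3.42-fold lower. In each of these 5 genes the distance of the double deletion strain from the parent exceeded that of the clp1 deletion strain.

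**Figure D3:**
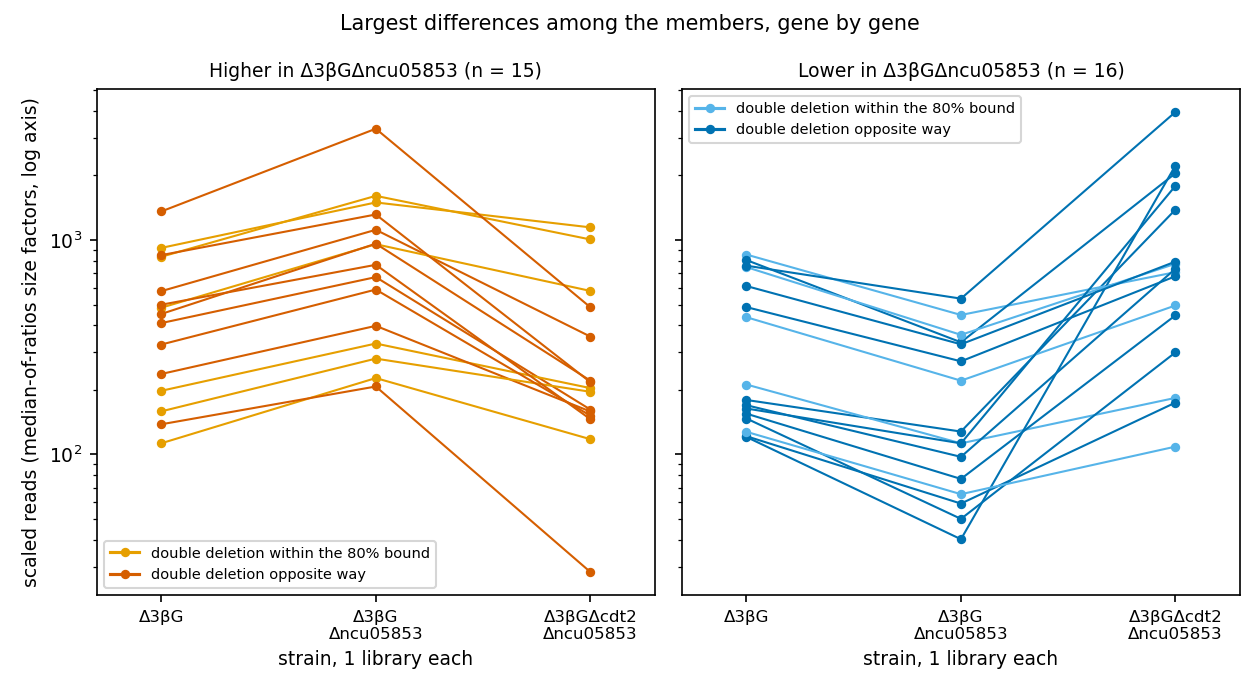
Scaled reads (log axis) in the 3 strains, 1 library each, for 15 members higher and 16 members lower in Δ3βGΔncu05853: the 12 highest ratios there, the 12 lowest, and the 8 genes furthest the other way in the double deletion strain. Each line is 1 gene and peaks or dips in the middle strain by the choice of members; at the right, NCU05767 ends lowest at 28.3 scaled reads and NCU06123 highest at 3954.

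Members without a symbol that had many reads, beside NCU09738 and NCU07123, included lower and higher ones. NCU09223 had 14509, 11165 and 25846 reads, 1.43-fold lower (1.39 to 1.46) and then 2.06-fold higher (2.02 to 2.10). NCU09485 had 5691, 4090 and 5459 reads, 1.53-fold lower (1.47 to 1.59) with a ratio of 1.11 in the double deletion strain. NCU00813 (1887, 1443 and 2612 reads) and NCU01107 (1258, 914 and 2118 reads) were 1.43-fold and 1.51-fold lower and then 1.60-fold and 1.95-fold higher. NCU06128, with 1590, 2738 and 582 reads, was higher by 1.57-fold and then lower by 2.36-fold.

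Of the 95 members, 43 fall outside the rule for naming and are given as ranges. Those higher in Δ3βGΔncu05853 and near the parent in the double deletion strain were NCU15831, NCU06424, NCU03122, NCU03691, NCU01945 and NCU08155, which were 1.44-fold to 1.62-fold higher with ratios of 0.840 to 1.17 in Δ3βGΔcdt2Δncu05853. NCU06932, NCU08425, NCU06261, NCU02979 and NCU05018 were 1.46-fold to 1.53-fold higher and then 1.37-fold to 2.87-fold lower. Among lower members, 13 were 1.41-fold to 1.64-fold lower and then 1.32-fold to 2.96-fold higher. They are NCU06803, NCU02596, NCU04936, NCU09528, NCU04667, NCU07117, NCU07503, NCU01419, NCU07956, NCU02883, NCU04168, NCU07753 and NCU03433. The last 19 were 1.4-fold to 1.74-fold lower with ratios of 0.837 to 1.21 in the double deletion strain. They are NCU04474, NCU03643, NCU03408, NCU08166, NCU08064, NCU02838, NCU04291, NCU01741, NCU07108, NCU04994, NCU00247, NCU02338, NCU01089, NCU10225, NCU08674, NCU00283, NCU04943, NCU08923 and NCU01233.

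The limits of the rule lie in a dense range of values. Just inside 1.4-fold were the higher members NCU07657 (1.41), NCU07123 (1.43) and pcb-3 (1.43), and just outside were NCU08927 (just under 1.4), NCU08282 (1.39) and NCU00290 (1.38). On the lower side NCU00605, NCU01638 and NCU03113 (each just over 1.4-fold lower) were inside and NCU07434 (just under 1.4), NCU06521 (1.39) and NCU07939 (1.39) outside. At the 80% bound of the double deletion strain, the parent's level as a percentage of the higher one was 80.2% for NCU09693, 81.1% for NCU06750 and 81.3% for NCU07279, all inside, and 78.5% for NCU05625, 77.2% for NCU03348 and 76.3% for NCU00657, all outside. Among genes lower in both deletion strains, the double deletion level was 81.1% of the parent's for NCU17258, 81.7% for NCU03113 and 82.3% for ncw-3, all inside, and 79.9% for NCU05289, 79.8% for NCU07157 and 79.5% for NCU02943, all outside. The deleted gene cdt-2 itself had 2842 reads in Δ3βGΔncu05853 against 1907 in Δ3βG, a ratio of 1.36, and so lay just under the 1.4-fold limit.

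Counting intervals were set against the limits of the rule, which used the same counts. A difference between members and all genes can therefore follow from the rule. All 95 counting intervals of the ratio of Δ3βGΔncu05853 to Δ3βG excluded 1, as did 48.7% of those of all 6229 genes. For 37 of the 95 members the whole interval lay beyond 1.4-fold, against 3.89% of all genes. Of the 619 genes at least 1.4-fold apart either way, 242 had such an interval. In the double deletion strain, 17 of the 48 members near the parent had an interval that excluded 1, against 83.3% of all genes. The interval lay wholly within the 80% bound for 13 members, against 10.9% of all genes. Between the deletion strains, 90 of the 95 intervals excluded 1, against 81.5% of all genes.

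The median abundance of the 95 members was below that of genes at large, but on RPKM this differed by direction. Their median was 373 reads in Δ3βG, against 525 over the 6229 genes, and 17.1 RPKM against 21.2. The higher members had a median of 477 reads and 23.3 RPKM in Δ3βG, and the lower members 342 reads and 16.0 RPKM. The higher members were thus below all genes in median reads and above them in median RPKM. Of the members, 29 (30.5%) had fewer than 200 reads in Δ3βG, against 18.0% of all genes, and 13 (13.7%) had at least 1000, against 28.8%. The share of all genes at least 1.4-fold apart either way in Δ3βGΔncu05853 was 15.0% below 200 reads, 7.37% at 1000 to 4999 and 14% from 5000 upwards. The part of read depth in the members' number was not tested.

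Exon length, which the rule did not use, had a median of 1758 bases over the higher members and 2156 over the lower ones, against 2365 over all 6229 genes. Of the 32 higher members, 15 had exons of more than 1500 and up to 2000 bases in total, which is 1.24% of the 1206 genes of that length, against 0.311% of the 1928 genes above 3000 bases. The lower members made up 1.42% of the 1053 genes of up to 1500 bases and 0.830% of those above 3000. The median ratio over all genes also moved with length, from 1.0 at up to 1500 bases to 0.966 above 3000 in Δ3βGΔncu05853, and from 1.09 to 0.864 in Δ3βGΔcdt2Δncu05853. The part of length in the members' values was not tested.

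The balance of higher and lower members depended on the scaling of the double deletion library. On totals of gene reads, ratios of that library to Δ3βG were 0.758 times those reported here, and 49 higher and 38 lower genes met the rule. On all reads in the file they were 0.834 times as large, with 54 higher and 36 lower genes. With the TMM factors of edgeR, 33 higher and 57 lower genes met it. Under all 5 scalings tried, 61 of the 95 genes remained, 31 of them higher and 30 lower, including al-1, bli-4, con-10, cax, grp78 and pcb-3. The other 6 genes with symbols, cys-2, gln-1, mip-1, mus-18, ncw-3 and set-2, did not remain under all of them.

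**Figure D4:**
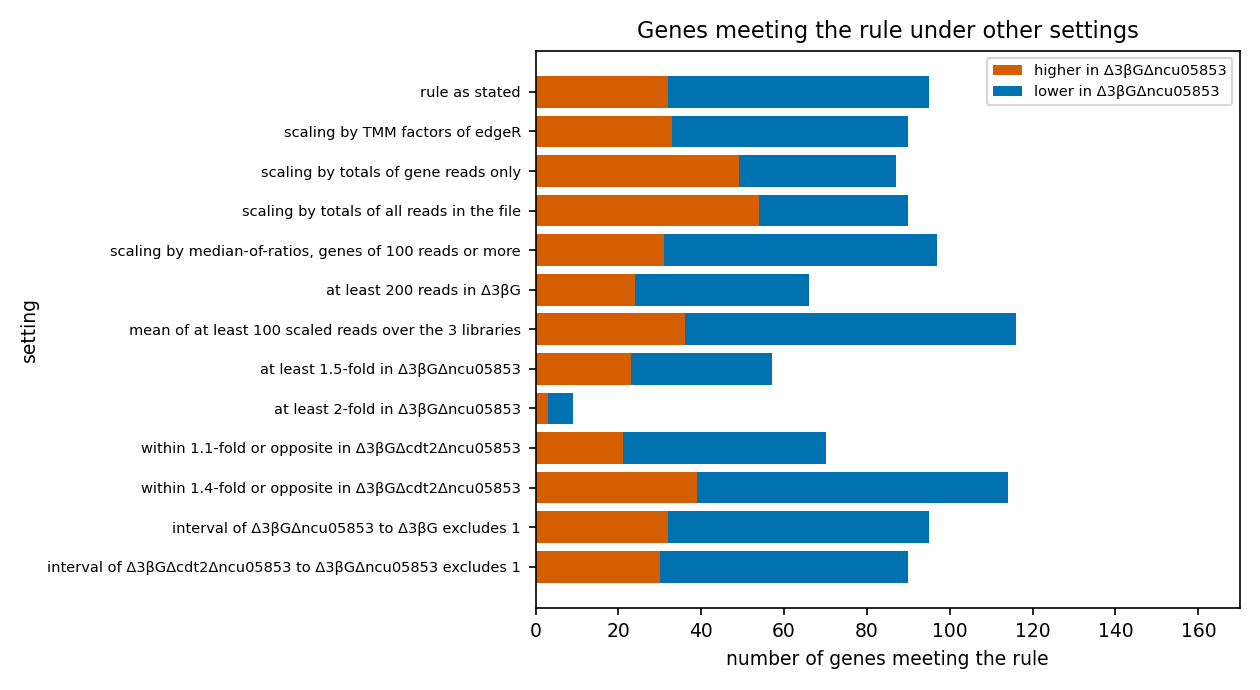
Number of genes meeting the rule under the stated settings and others, divided into genes higher (orange) and lower (blue) in Δ3βGΔncu05853. The total is 95 as stated and between 87 and 97 under the other scalings, while the share of higher genes is largest on all reads in the file (54 of 90).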

How the data were processed

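RNA from mycelia of 3 strains, 1 library each, was sequenced by the submitters. The deposited read counts per gene were made by the authors with TopHat and HTSeq, per the submitters' processing notes. The sources used here give no versions, settings, genome build, annotation or strand use. The deposited RPKM values are scaled by the authors to exon length and all reads in the file, per the file headers and a recomputation that differed by at most 1.93e-08 of the value. They were used for levels between genes.

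Rows that name no gene (16.8%, 14.2% and 8.53% of reads in Δ3βG, Δ3βGΔncu05853 and Δ3βGΔcdt2Δncu05853) were left out. Size factors were 1.02, 1.12 and 0.882, from the 8691 genes with reads in all 3 libraries. Ratios carry no pseudocount and have exact 95% intervals (scipy 1.17.1). Alternatives included the TMM factors of edgeR 4.0.16. The rule and intervals were run on simulated counts as a check of the code only. That simulation had counting error alone and planted changes larger than those of most members. It also set the double deletion level of every gene equal to the parent's. It therefore says nothing about variation between cultures or about the members found here. No test across replicates was possible.

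Symbols and gene order came from RefSeq assembly NC12, which matched 9729 of 9730 identifiers and gave 1118 a symbol. The 9 lists were defined by symbol, for functions that a member with a symbol has, and were redrawn after the values were seen. Members and lists were chosen with earlier results of these data known. Named are members with a symbol, the 12 highest and 12 lowest ratios, the 10 with most reads, the 8 furthest the other way in the double deletion, neighbouring members, and 3 genes on each side of each bound. Sequences were not used here.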

Additional observations from a re-analysis of the deposited data

How the results depend on the processing

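The total of 95 genes stayed within 1.5 times under the other scalings (87 to 97), but its division did not. On totals of gene reads the counts were 49 higher and 38 lower, and on all reads in the file 54 and 36. Under these scalings all ratios of the Δ3βGΔcdt2Δncu05853 library to Δ3βG were shifted by -0.40 and -0.26 on the log2 scale. Those of Δ3βGΔncu05853 were shifted by -0.007 and 0.038. Of the ratios of 52 named members in Δ3βGΔcdt2Δncu05853, 2 stayed within their counting interval on gene reads, 19 on all reads, and 52 with TMM factors. On totals of gene reads the ratios of grp78 and NCU01064 in that strain turned to 0.969 and 0.985. Without a minimum beyond 1 read in Δ3βG, 515 genes met the rule, 181 higher and 334 lower, since genes of few reads were let in. At least 1.5-fold left 57 genes (34 of them lower) and at least 2-fold left 9 (3 higher and 6 lower). A bound of 1.1-fold left 21 higher genes. The other settings, among them 1 chosen after seeing the data (an interval between the deletion strains that excludes 1, 90 genes), kept each count within 1.5 times. No paired analysis was possible because each strain had 1 library. For the same reason leaving out a replicate could not be done.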
